A study of Mus musculus with 6 samples.

Results

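Cd163 and 7 further macrophage genes were followed through single cells of mouse pancreatic tumors. Folr2, Mrc1, Stab1, Lyve1, Msr1 and Marco encode scavenger or endocytic receptors, as Cd163 does, and Npl encodes an enzyme of sialic acid. These 8 members of 34187 measured genes were listed by name. The list was chosen from per-mouse treatment differences in macrophages seen in earlier results of these data, so their differences between treatments in macrophages and dendritic cells are given as a description, with no test. They were read in 19378 macrophage-like or monocyte-like, 1494 dendritic cell-like and 991 endothelial-like cells of 92485 clustered cells.

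Mice carried subcutaneous tumors of 6694c2vTRP1 cells, a pancreatic ductal adenocarcinoma line, and were injected intraperitoneally with PBS, with mono-IL10, a monomeric form of interleukin-10, at 26 µg per mouse, or with IL10/2-Trikine, an engineered cytokine that engages receptor chains used by interleukin-10 and interleukin-2, at 30.6 µg per mouse. Injections began on day 8, were given every 2 days for 2 doses, and tumors were taken on day 14. Cells were enriched on beads for CD45, the surface marker of blood-derived cells, tagged with a hashtag antibody for each mouse, pooled, and sequenced with a 5′ droplet kit as 1 library per treatment, with 5 tagged mice in each library. The mice were C57BL/6, of both sexes in the methods for this tumor model, and their age is not given for this experiment in the sources used here.

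Because each treatment was 1 library, the treatment and the library cannot be told apart, and the spread given below is that between the 5 mice pooled in a library. The libraries held 44412 (PBS), 30528 (mono-IL10) and 55504 (IL10/2-Trikine) barcodes, and they shared 408 to 700 barcodes with one another. Of the clustered cells, 38664 were tumor epithelial-like in spite of the CD45 beads. Macrophage-like cells numbered 8004, 6022 and 5352 in the PBS, mono-IL10 and IL10/2-Trikine libraries, and their median depths were 4895, 6139.5 and 2743.5 unique molecular identifiers (UMIs, one per captured transcript). Levels are CPM, a gene's UMIs scaled to a fixed library total, summed over a mouse's cells of a class, and shares of cells with a transcript were taken after thinning every cell to 2000 UMIs, which left out 334, 139 and 870 macrophage-like cells. Sums of this kind cannot separate fewer expressing cells from less RNA per cell. Cells with no hashtag call stayed in the clusters and in values given per library or pooled over cells. They were left out of values given per mouse.

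Tissue macrophages take up debris, lipoproteins and spent plasma proteins through scavenger receptors, and several of these receptors mark macrophages that live near vessels and in connective tissue. Cd163 encodes the receptor that clears haptoglobin and hemoglobin complexes. Mrc1 encodes the mannose receptor, which takes up glycoproteins, and Folr2 encodes a folate receptor of macrophages. Stab1 (stabilin-1) and Lyve1 (a hyaluronan receptor) are shared between macrophages and certain endothelial cells. Msr1 and Marco encode class A scavenger receptors that bind modified lipoproteins and microbes, and Npl encodes an enzyme that splits sialic acid inside the cell. Interleukin-10 is a cytokine known for raising CD163 in cultured monocytes.

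Windows around the transcription starts of 6 of the 8 members were found in RefSeq (build GRCm38.p6), from 250 bases before to 50 bases after the start. The deposited matrices used GRCm39, so these coordinates belong to the RefSeq build alone. Those of Cd163, Folr2, Mrc1 and Npl, whose levels moved together below, and of Stab1, whose levels moved less, are printed 5′ to 3′ on the strand of the gene. Capitals mark GAGGAA on either strand, the core of a motif known from the myeloid factor PU.1. Cd163 lies at chr6:124304401-124304700 on the plus strand, Folr2 has a start at chr7:101857141-101857440 and another at chr7:101845282-101845581, both on the minus strand, Mrc1 lies at chr2:14229164-14229463 on the plus strand, Npl at chr1:153549665-153549964 and Stab1 at chr14:31168592-31168891, both on the minus strand.
Cd163: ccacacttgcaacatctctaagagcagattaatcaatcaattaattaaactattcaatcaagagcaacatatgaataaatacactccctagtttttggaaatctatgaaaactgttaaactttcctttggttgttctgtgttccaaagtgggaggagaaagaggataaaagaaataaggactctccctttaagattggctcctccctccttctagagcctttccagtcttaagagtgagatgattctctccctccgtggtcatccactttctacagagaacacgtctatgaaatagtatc
Folr2, upstream start: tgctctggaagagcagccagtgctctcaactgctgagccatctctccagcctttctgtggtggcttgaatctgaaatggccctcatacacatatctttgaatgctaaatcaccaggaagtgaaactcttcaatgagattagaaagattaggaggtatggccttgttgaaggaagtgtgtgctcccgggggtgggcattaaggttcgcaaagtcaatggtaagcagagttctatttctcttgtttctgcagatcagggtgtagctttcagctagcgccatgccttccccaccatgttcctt
Folr2, downstream start: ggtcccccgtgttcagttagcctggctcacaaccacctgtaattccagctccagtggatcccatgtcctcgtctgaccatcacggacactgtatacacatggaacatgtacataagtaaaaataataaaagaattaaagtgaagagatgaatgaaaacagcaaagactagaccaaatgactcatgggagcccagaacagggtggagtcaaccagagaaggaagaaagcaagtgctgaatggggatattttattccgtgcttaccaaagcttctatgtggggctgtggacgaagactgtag
Mrc1: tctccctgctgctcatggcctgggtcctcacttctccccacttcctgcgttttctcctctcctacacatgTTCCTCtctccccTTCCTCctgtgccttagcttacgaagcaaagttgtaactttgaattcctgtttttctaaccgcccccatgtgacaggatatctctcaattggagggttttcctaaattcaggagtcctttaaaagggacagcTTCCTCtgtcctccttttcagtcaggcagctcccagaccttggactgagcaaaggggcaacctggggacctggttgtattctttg
Npl: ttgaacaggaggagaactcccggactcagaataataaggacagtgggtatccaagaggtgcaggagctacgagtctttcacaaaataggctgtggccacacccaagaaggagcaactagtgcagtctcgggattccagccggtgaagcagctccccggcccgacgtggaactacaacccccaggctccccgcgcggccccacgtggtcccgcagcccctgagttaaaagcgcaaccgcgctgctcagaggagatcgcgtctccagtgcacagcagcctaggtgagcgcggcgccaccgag
Stab1: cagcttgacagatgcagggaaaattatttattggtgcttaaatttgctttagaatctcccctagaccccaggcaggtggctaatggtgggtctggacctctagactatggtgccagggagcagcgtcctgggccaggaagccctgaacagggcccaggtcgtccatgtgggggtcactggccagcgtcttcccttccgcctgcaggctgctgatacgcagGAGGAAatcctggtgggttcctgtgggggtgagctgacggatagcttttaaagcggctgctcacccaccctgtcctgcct

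The plus-strand or minus-strand letters GAGGAA occurred 3 times in the Mrc1 window, once in that of Stab1 and once in that of Marco (chr1:120504975-120505274, minus strand), and 28.3% of all 32851 windows of this length held them. The longer GAGGAAGT was in 3.20% of all windows, the STAT-type TTCNNNGAA in 8.30% and the MAF-type TGCTGAC in 4.67%, each on either strand, and none of these 3 was in a member's window. GAGGAA overlaps GAGGAAGT and was searched after the 3 longer motifs had given no match. The windows of Cd163, Folr2 and Npl held none of the 4 motifs. A match is a description of letters, and no match says only that these letters were not in these windows.

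In macrophages, Cd163 (ENSMUSG00000008845) stood at a low level after PBS and was several-fold higher after both cytokines. Its level was 22.7, 12.2, 15.9, 4.79 and 31.4 CPM in PBS mice 1 to 5. In mono-IL10 mice 1 to 5 it was 135, 162, 74.3, 51.9 and 186 CPM, and in IL10/2-Trikine mice 1 to 5 it was 103, 182, 196, 63.6 and 116 CPM. Every cytokine-treated mouse lay above every PBS mouse, whereas the mono-IL10 and IL10/2-Trikine mice overlapped over most of their range. The means were 17.4 ± 10.1, 122 ± 57.1 and 132 ± 55.5 CPM (SD, n = 5 mice each). The fitted log2 difference from PBS was 2.88 (SE 0.37) for mono-IL10 and 2.90 (SE 0.39) for IL10/2-Trikine, both against the same PBS mice, and that between the cytokines was 0.02 (SE 0.34). The share of macrophages with a Cd163 transcript at 2000 UMIs was 1.94 ± 1.03% after PBS, 9.28 ± 3.19% after mono-IL10 and 9.07 ± 3.35% after IL10/2-Trikine. Without thinning these shares were 3.48%, 13.4% and 10.2%.

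The share of macrophages in some clusters differed between treatments, though each cluster named here held cells of all 3. Clusters were built on 2000 variable genes with the 8 members left out, though other genes that differed between treatments were among those used. After PBS the largest in a mouse on average was one led by Ms4a7 and Cx3cr1 (20.3%, against 4.74% after mono-IL10 and 1.44% after IL10/2-Trikine). After mono-IL10 it was one led by Pf4 and Fabp5 (25.6%, against 2.44% after PBS and 7.24% after IL10/2-Trikine). After IL10/2-Trikine it was one led by Pf4 and Arg1 (28.8%, against 10.3% after PBS and 10.02% after mono-IL10). Their median depths were 5680, 5514 and 2606 UMIs in that order, and the libraries were not aligned before clustering. One led by Ccl24 and Ccr2 held 10.0%, 7.52% and 7.42% after PBS, mono-IL10 and IL10/2-Trikine.

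**Figure D1:**
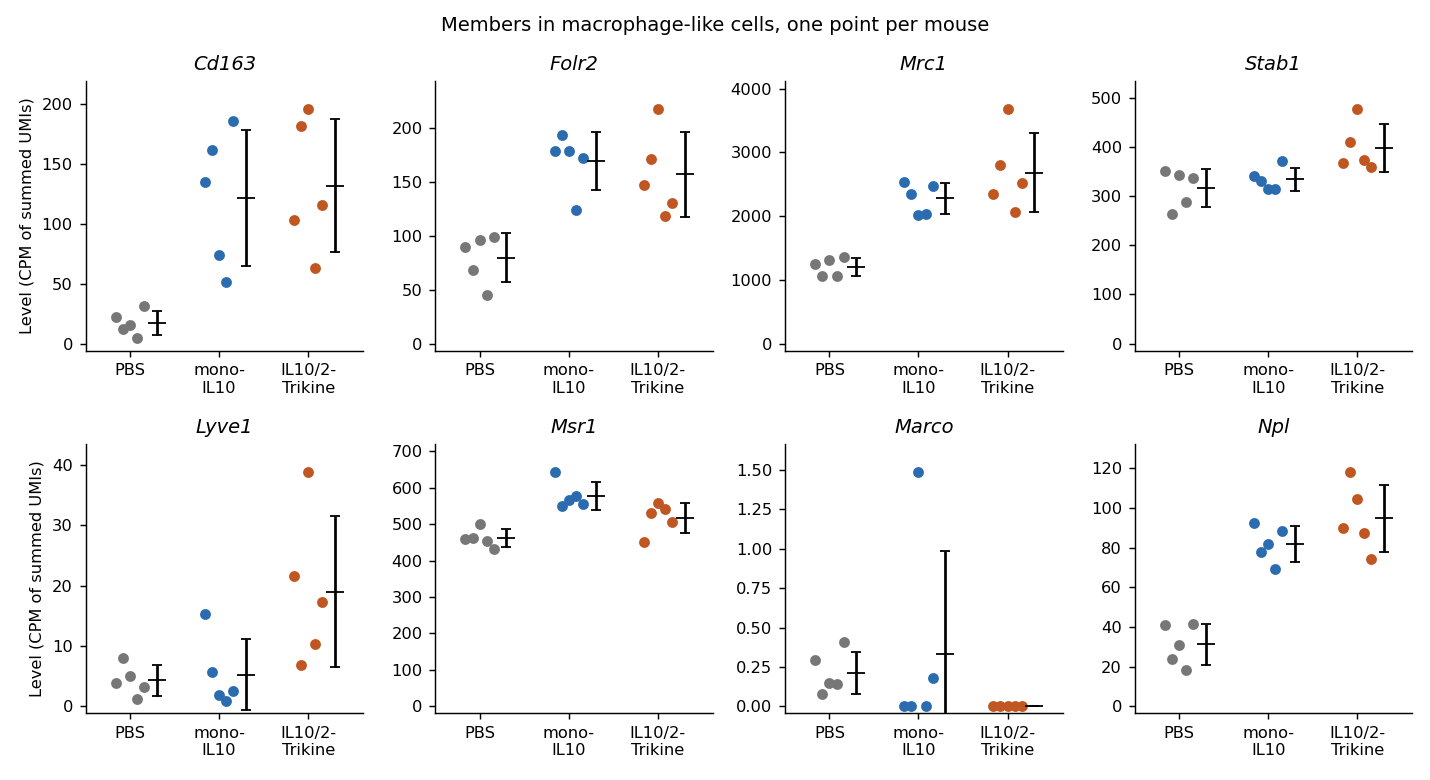
Level of each of the 8 members in macrophage-like cells (CPM of summed UMIs, linear axes), with 1 point per mouse and, beside the points, the mean and SD of 5 mice, for PBS, mono-IL10 and IL10/2-Trikine. For Cd163, Folr2, Mrc1 and Npl all 5 mice of each cytokine lie above all 5 PBS mice, and for Marco every IL10/2-Trikine mouse is at 0.

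Folr2 (ENSMUSG00000032725) was also higher after both cytokines, with a smaller step. PBS mice 1 to 5 had 89.7, 68.5, 96.2, 45.4 and 98.3 CPM, mono-IL10 mice 178, 194, 178, 124 and 171 CPM, and IL10/2-Trikine mice 147, 171, 217, 118 and 129.8 CPM. All cytokine-treated mice were above all PBS mice, and the mono-IL10 and IL10/2-Trikine mice overlapped. The log2 difference from PBS was 1.17 (SE 0.17) for mono-IL10 and 0.95 (SE 0.18) for IL10/2-Trikine. At 2000 UMIs, 12%, 23.9% and 22.3% of PBS, mono-IL10 and IL10/2-Trikine macrophages held a Folr2 transcript.

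Mrc1 (ENSMUSG00000026712) was detected in most macrophages of every mouse. Its level was 1252, 1060.5, 1313, 1059 and 1361 CPM in PBS mice 1 to 5, 2538, 2348, 2015, 2034 and 2472 CPM in mono-IL10 mice and 2353, 2801, 3679, 2059 and 2527 CPM in IL10/2-Trikine mice. The lowest cytokine-treated mouse was well above the highest PBS mouse, and IL10/2-Trikine mouse 3 stood highest. The log2 differences from PBS were 0.99 (SE 0.12) and 1.14 (SE 0.12) for mono-IL10 and IL10/2-Trikine. The thinned share of macrophages with a transcript was 78.3% after PBS, 91.1% after mono-IL10 and 92.5% after IL10/2-Trikine.

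Npl (ENSMUSG00000042684), the sialic acid lyase gene, stood at 41.1, 24.0, 31.1, 18.1 and 41.7 CPM in PBS mice 1 to 5. It stood at 92.6, 77.6, 81.9, 69.2 and 88.2 CPM in mono-IL10 mice and at 90.1, 118, 104, 87.3 and 74.4 CPM in IL10/2-Trikine mice. The groups given a cytokine did not overlap PBS and did overlap each other. The log2 difference from PBS was 1.47 (SE 0.16) for mono-IL10 and 1.60 (SE 0.17) for IL10/2-Trikine, and the thinned shares were 5.07%, 13.5% and 13.9%.

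The remaining receptors behaved less uniformly. Stab1 (ENSMUSG00000042286) had means of 316 ± 38.4, 334 ± 23.5 and 397 ± 48.7 CPM after PBS, mono-IL10 and IL10/2-Trikine (SD, n = 5 mice each). The PBS mice ranged from 264 to 351 CPM, the mono-IL10 mice from 314 to 372 CPM and the IL10/2-Trikine mice from 359 to 477 CPM. Only the IL10/2-Trikine mice stood clear of PBS, by a log2 difference of 0.32 (SE 0.08), against 0.16 (SE 0.08) for mono-IL10.

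Msr1 (ENSMUSG00000025044) stood clear of PBS only after mono-IL10. It ranged from 432 to 499 CPM in PBS mice, from 549 to 643 CPM in mono-IL10 mice and from 449.5 to 557 CPM in IL10/2-Trikine mice. The log2 difference from PBS was 0.40 (SE 0.07) for mono-IL10 and 0.15 (SE 0.07) for IL10/2-Trikine. The difference between the cytokines was -0.25 (SE 0.07).

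Lyve1 (ENSMUSG00000030787) was sparse in macrophages. PBS mice 1 to 5 had 3.91, 8.08, 5.05, 1.16 and 3.26 CPM, mono-IL10 mice 15.2, 5.68, 1.83, 0.874 and 2.50 CPM and IL10/2-Trikine mice 21.6, 6.92, 38.8, 10.4 and 17.2 CPM. Of the IL10/2-Trikine mice, 4 of 5 were above every PBS mouse, and the mono-IL10 mice lay on both sides of PBS. The log2 difference of IL10/2-Trikine from PBS was 1.91 (SE 0.57), and it ran from 1.68 to 2.37 with each mouse left out in turn. For mono-IL10 it was 0.43 with all mice and -0.67 without mono-IL10 mouse 1, which alone held 15.2 CPM.

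Marco (ENSMUSG00000026390) was close to absent. It had 9 UMIs among 44462426 macrophage UMIs after PBS, 14 among 41139335 after mono-IL10, of which 13 came from mouse 3, and 0 among 15652710 after IL10/2-Trikine. A count of 0 there allowed up to 0.192 CPM at a floor of 3 counts over the group, and counting error alone is covered by that floor. The PBS mean was 0.214 CPM, so an IL10/2-Trikine level below PBS was barely within the depth.

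Of the 7 members that passed the filter on low counts, all but Marco, 5 were higher in every mono-IL10 mouse than in every PBS mouse (Cd163, Folr2, Mrc1, Npl and Msr1), and 5.68% of all genes tested were so. For IL10/2-Trikine against PBS it was also 5 members (Cd163, Folr2, Mrc1, Npl and Stab1), beside 6.36% of all genes. No member that passed was lower without overlap in either contrast, where 13.6% and 5.59% of all genes were. Between IL10/2-Trikine and mono-IL10 no member stood clear in either direction, with 7.21% of all genes higher and 2.46% lower. The list was chosen on these differences, so the counts describe the list and nothing is read from them.

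**Figure D2:**
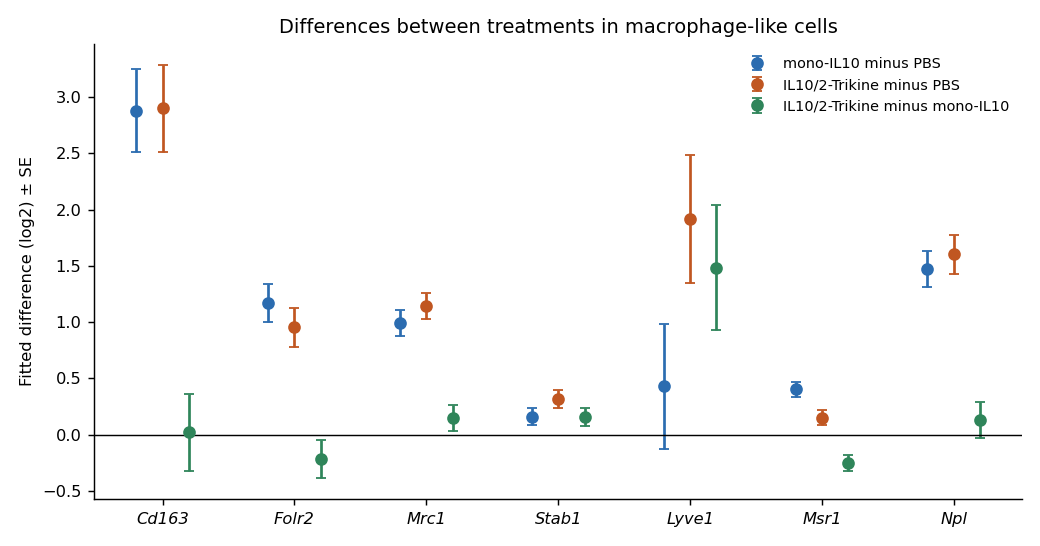
Fitted log2 difference (points) and standard error (bars) of each member that passed the filter in macrophage-like cells, colored by contrast. The Cd163 points sit at 2.88 and 2.90 against PBS and at 0.02 between the cytokines, while those of Stab1 sit at 0.16 and 0.32 against PBS.

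Markers of other cell types also moved between libraries in these macrophage sums. T cell markers summed to 24.4 to 44.4 CPM over the PBS mice, 13.5 to 32.9 after mono-IL10 and 54.0 to 93.6 after IL10/2-Trikine, and tumor markers to 44.1 to 76.6, 40.5 to 63.3 and 74.2 to 116 CPM. Neutrophil markers summed to 315 to 428, 129.6 to 329.6 and 351 to 597 CPM, and NK cell markers to 5.47 to 10.3, 1.78 to 8.30 and 19.4 to 42 CPM. Endothelial markers summed to 75.1 to 114, 108 to 149.5 and 68.3 to 147 CPM, and a lymphatic list that includes Pdpn to 217 to 252, 391 to 533 and 224 to 325 CPM. Over all macrophage-like cells Pecam1 stood at 99.1 CPM and Flt1, the next of the endothelial list, at 2.42. Pdpn stood at 328 CPM and Flt4, the next of the lymphatic list, at 0.326. The endothelial and lymphatic sums were thus nearly all Pecam1 and Pdpn, and are not read as endothelial or lymphatic RNA. Conventional dendritic cell markers summed to 90.7 to 115, 70.6 to 82.3 and 95.2 to 101 CPM, and fibroblast markers to 17.0 to 29.1, 9.96 to 17.9 and 21.6 to 69.7 CPM. Macrophage markers summed to 16677 to 18969, 16221 to 18600 and 16285 to 17943 CPM. In macrophages with no UMI of a tumor, T or NK marker the Cd163 difference from PBS was 3.14 for mono-IL10 and 3.11 for IL10/2-Trikine. Neutrophil, endothelial, dendritic cell and fibroblast markers were not part of that selection, and their part in the members' levels was not tested.

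The members were also read inside clusters of the macrophage-like cells. Of these, 9 had at least 10 cells in every mouse. The largest PBS cluster, led by Ms4a7 and Cx3cr1, and a smaller one led by Cx3cr1 and Fcrls (6.56% of PBS macrophages) did not, and are given apart. Cd163, Folr2 and Npl were themselves among the leading genes of the cluster named here by Ccl8 and Cbr2, Cd163 and Mrc1 among those of the cluster named by Pf4 and Fabp5, and Stab1 among those of the cluster named by Ccl12 and Ccl8, so their high level there describes the cluster. In the Ccl8 and Cbr2 cluster Cd163 was 199 ± 63.1 CPM after PBS (99.6 to 256), 565 ± 186 after mono-IL10 (323 to 735) and 797 ± 219 after IL10/2-Trikine (515 to 1059; SD, n = 5 mice each), and both cytokine groups were clear of PBS. In the Pf4 and Fabp5 cluster Cd163 stood at 49.4 ± 37.5, 198 ± 86.9 and 164 ± 93.9 CPM.

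Across the 9 clusters, the mean of Cd163 over mice was higher than PBS in 8 after mono-IL10 and in all 9 after IL10/2-Trikine, with every mouse clear of PBS in 4 and in 2. For Mrc1 the mean was higher in 9 and 9 clusters, with every mouse clear in 8 and in 9. Folr2 and Npl were each higher in 8 clusters after mono-IL10 and in 9 after IL10/2-Trikine, clear in 3 and 1 for Folr2 and in 3 and 5 for Npl. Stab1 differed in this respect. Its mean was higher in 2 clusters and lower in 7 after mono-IL10, and higher in 6 and lower in 3 after IL10/2-Trikine. It was clear of PBS in none. The share of all genes clear of PBS inside clusters was not taken. The list was chosen on macrophage differences, so these counts describe the list and nothing is read from them. In the Ms4a7 and Cx3cr1 cluster Cd163 was 14.8 CPM after PBS, 26.1 after mono-IL10 and 7.50 after IL10/2-Trikine, the last over 2 mice. In the Cx3cr1 and Fcrls cluster it was 13.8, 3.56 (4 mice) and 42.5 CPM (3 mice). Over these mice 1 cytokine had a lower mean than PBS in each of these clusters. Summed over all cells of the Ms4a7 and Cx3cr1 cluster, Cd163 was higher after IL10/2-Trikine, at 28.05 CPM against 13.01 after PBS. No direction is therefore read for IL10/2-Trikine there. In such sums the Cx3cr1 and Fcrls cluster kept its lower mono-IL10 level, at 5.24 against 13.38 CPM after PBS.

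**Figure D3:**
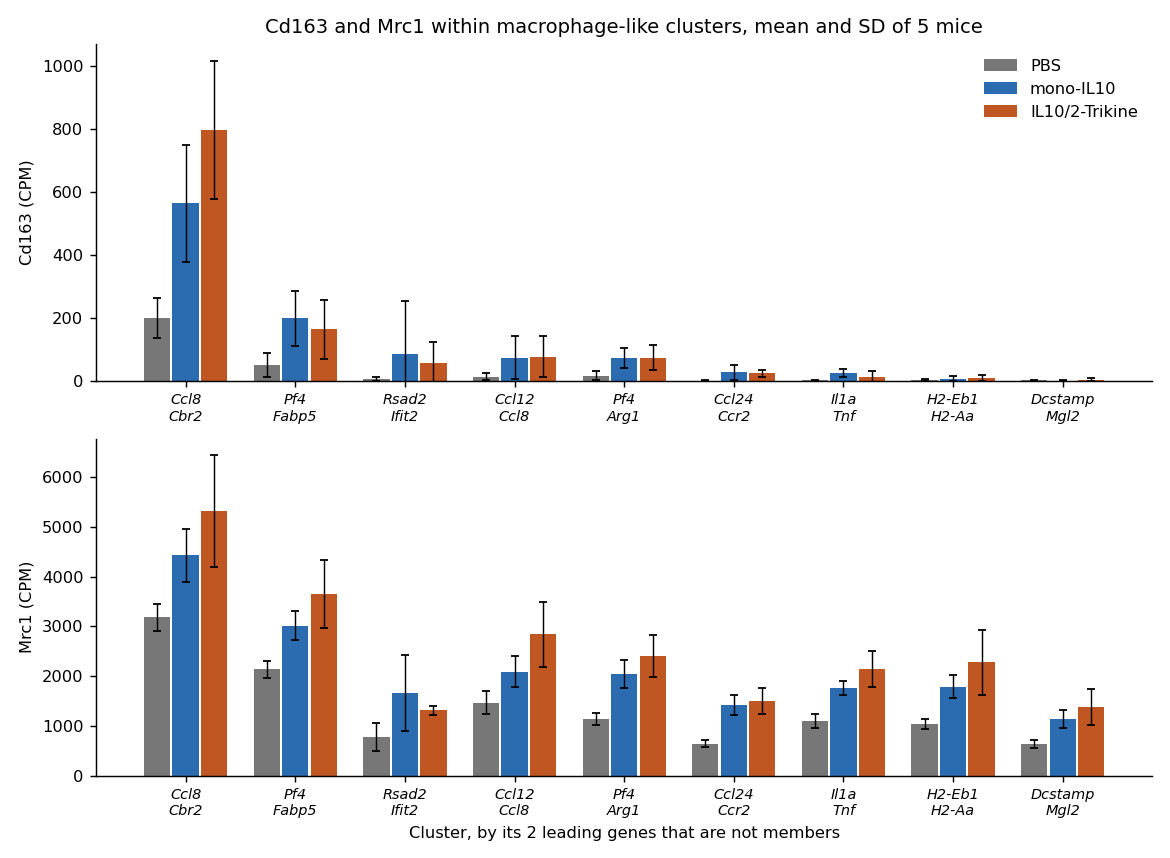
Level of Cd163 (upper panel) and Mrc1 (lower panel) in CPM inside each of the 9 macrophage clusters, named by the leading genes that are not members, with bars at the mean and whiskers at the SD of 5 mice per treatment. In the Ccl8 and Cbr2 cluster Cd163 averages 199 CPM after PBS, 565 after mono-IL10 and 797 after IL10/2-Trikine, and Mrc1 is higher than PBS in all 9 clusters with both cytokines.

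Each cluster's level was held at that of all cells pooled, and only its share in a mouse was moved. This gave means of 43.0, 105 and 96.0 CPM of Cd163 after PBS, mono-IL10 and IL10/2-Trikine, against 17.4, 122 and 132 observed. A pooled level follows the treatment that fills the cluster. In the Pf4 and Fabp5 cluster, with 1509 of 2045 cells from mono-IL10, it was 181 CPM, against 49.5 in PBS cells. These means therefore carry treatment differences inside clusters and do not give the part of the shares alone. With the 9 clusters weighted equally and the other macrophages left out, the Cd163 difference from PBS was 1.88 for mono-IL10 and 2.09 for IL10/2-Trikine, against 2.88 and 2.90 over all cells, and that of Folr2 was 0.42 and 0.34, against 1.17 and 0.95. Mrc1 then stood at 0.67 and 0.91, Npl at 1.06 and 1.33 and Msr1 at 0.27 and 0.04. Stab1 was -0.20 with mono-IL10 and 0.02 with IL10/2-Trikine, where all cells gave 0.16 and 0.32. Lyve1 was -0.84 with mono-IL10, where all cells gave 0.43, and 0.98 with IL10/2-Trikine. The equal-weight values are log2 ratios of mean CPM and those over all cells are fitted differences. Small gaps between the 2 measures are therefore not read.

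Lyve1 was highest in the Ccl8 and Cbr2 cluster among the 9 in each treatment, at 84.4 ± 73.8, 45.8 ± 44.5 and 151 ± 56.5 CPM after PBS, mono-IL10 and IL10/2-Trikine. Mrc1 there averaged 3185, 4426 and 5315 CPM, and Npl 152, 295 and 274 CPM.

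Within single macrophages thinned to 2000 UMIs, Cd163 transcripts were found with those of Folr2, Stab1, Npl and Mrc1. Of cells with a Cd163 UMI, 48.4 ± 9.57% also had Folr2 after PBS, against 10.9 ± 3.05% of cells without (SD, n = 5 mice). After mono-IL10 the shares were 52.8 ± 7.33% and 20.9 ± 2.15%, and after IL10/2-Trikine 50.6 ± 8.35% and 18.3 ± 1.85%. The share was greater beside Cd163 in 5 of 5 mice of each treatment. The excess changed with the setting. It was 37.5, 31.8 and 32.3 percentage points after PBS, mono-IL10 and IL10/2-Trikine at 2000 UMIs and 58.8, 39.3 and 19.7 at 5000 UMIs. The values at 5000 UMIs came only from cells that deep, so depth and the choice of cells changed together. Mice with under 10 Cd163-bearing cells were left out, so values at 5000 UMIs may rest on fewer mice than those at 2000 UMIs. No order of the treatments is read from the excess. At 2000 UMIs Cd163 was in 144 of 7670 PBS, 554 of 5883 mono-IL10 and 378 of 4482 IL10/2-Trikine macrophages. Read from Folr2, 8.42%, 20.3% and 20.6% of Folr2-bearing macrophages had Cd163 after PBS, mono-IL10 and IL10/2-Trikine, against 1.29%, 5.99% and 5.26% of the rest.

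Stab1 was found in 71.1%, 61.6% and 66.7% of Cd163-bearing macrophages after PBS, mono-IL10 and IL10/2-Trikine, against 37.1%, 39.9% and 41.6% of the others. For Npl the shares were 21.1%, 31.7% and 33.8% beside Cd163 and 5.20%, 10.7% and 12.9% without it, greater in 4 of 5 PBS mice and in all mice of both cytokines. Mrc1 was near its ceiling, at 95.6%, 98.1% and 98.9% beside Cd163 and 78.2%, 89.5% and 92.3% without. Lyve1 was rare in both, at 7.15%, 2.07% and 9.54% against 0.394%, 0.553% and 1.03%. In the smaller set of cells with at least 5000 UMIs its excess after IL10/2-Trikine turned to -2.37 percentage points.

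Msr1 did not follow Cd163 in the same way. After PBS it was in 72.1% of cells with Cd163 and in 54.6% of those without, greater in 5 of 5 mice. After mono-IL10 the shares were 62.0% and 63.2%, greater beside Cd163 in 2 of 5 mice, and after IL10/2-Trikine 61.3% and 59.0%, greater in 3 of 5. All 4 of Cd163, Folr2, Mrc1 and Stab1 were found together in 0.675 ± 0.527% of PBS, 3.46 ± 1.22% of mono-IL10 and 3.0 ± 1.25% of IL10/2-Trikine macrophages. A macrophage held a mean of 1.91 ± 0.106, 2.43 ± 0.0891 and 2.41 ± 0.120 of the 8 members, and none of them in 8.78%, 2.83% and 2.60% of cells.

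**Figure D4:**
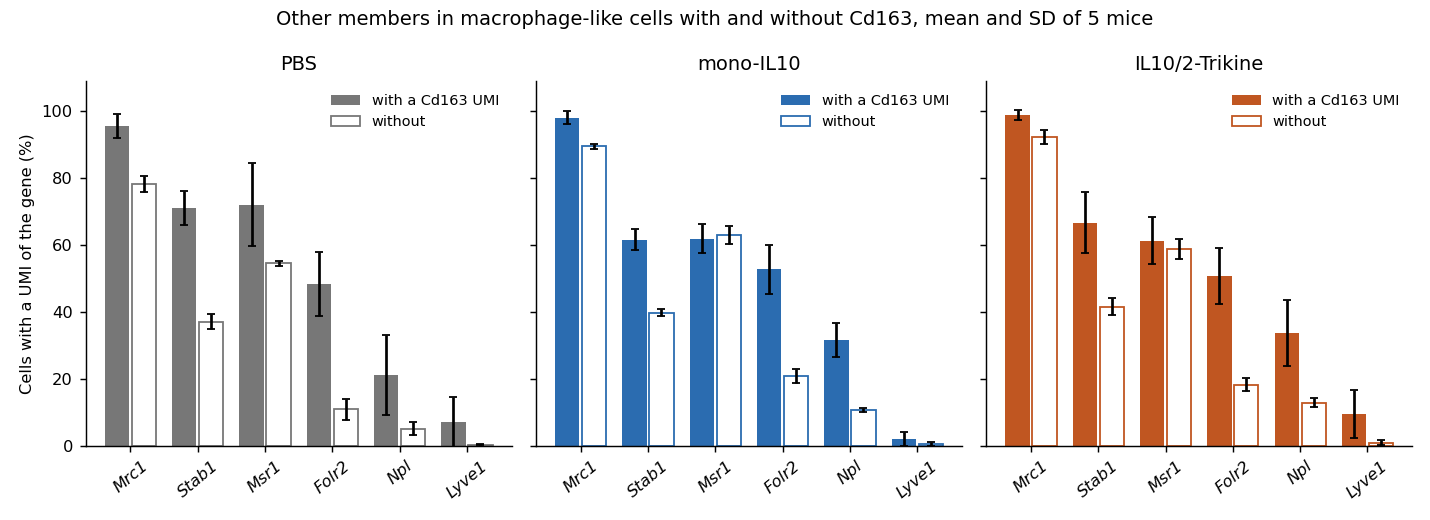
Share of macrophage-like cells (percent, each cell thinned to 2000 UMIs) with a UMI of another member, among cells with a Cd163 UMI (filled bars) and without one (open bars), in a panel for each treatment, as the mean and SD of 5 mice. Folr2 averages 48.4%, 52.8% and 50.6% beside Cd163 and 10.9%, 20.9% and 18.3% without it, while the Msr1 bars are level after mono-IL10 at 62.0% and 63.2%.

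The genes whose levels over the 15 mice were most like Cd163 after removing each treatment's mean were Igf1, a growth factor of resident macrophages, with a Pearson r of 0.926, then Adcy3 (0.897), Ptov1 (0.886), Rcn3 (0.880) and Folr2 (0.870), among 5886 genes at a mean of at least 20 CPM. Of the other members, Npl ranked 22 (0.805), Mrc1 27 (0.795), Stab1 77 (0.709) and Msr1 3614 (-0.003). These correlations are a description over mice that share 3 libraries and their depth.

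Dendritic cells carried most members at low levels. Mean Cd163 was 4.93, 10.8 and 5.55 CPM after PBS, mono-IL10 and IL10/2-Trikine, Folr2 11, 21.0 and 12.4, and Npl 4.56, 10.2 and 12.2. Single mice carried several of these means: without mono-IL10 mouse 3 (63.8 CPM, 22 UMIs) the Folr2 mean was 10.3 CPM, and without IL10/2-Trikine mouse 2 it was 8.23 and that of Npl 7.92 CPM. Without PBS mouse 2 (14 UMIs) the PBS mean of Cd163 was 3.12 CPM. Mrc1, which conventional dendritic cells can express, averaged 257, 218 and 384 CPM. Its log2 differences from PBS were -0.15 (SE 0.23) for mono-IL10 and 0.62 (SE 0.24) for IL10/2-Trikine. Thinned and pooled over each library, with cells that had no hashtag call, 20.3%, 12.4% and 20.9% of conventional dendritic cells held Mrc1. Among 154, 87 and 98 mature dendritic cells the shares were 7.14%, 17.2% and 28.6%. At 2000 UMIs 0.530% (exact 95% interval 0.145 to 1.35%), 0.796% (0.164 to 2.31%) and 1.19% (0.324 to 3.01%) of dendritic cells held Cd163. These intervals cover counting error over cells only, and overlapped those of T cells and NK cells of the same libraries. In this draw of the thinning they lay above the limits of tumor cells. Those limits were 0.0887% after PBS, 0.0403% after mono-IL10 (0 cells, taken as 3 counts of the total) and 0.141% after IL10/2-Trikine. In a separate draw for PBS, 1 of 601 conventional (interval 0.00421 to 0.924%) and 0 of 154 mature dendritic cells held Cd163. No order against tumor cells is therefore read for PBS. The mice of the 3 groups overlapped for every member, and Marco was at 0 in all. Macrophage markers summed to 2445 to 5214, 2521 to 3976 and 1043 to 5468 CPM in these cells, and their part in the members' levels was not tested.

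Endothelial-like cells, read by Pecam1, Cdh5, Kdr and Flt1 at means of 1171, 1240.4, 485 and 1386 CPM, carried Stab1. Stab1 was 106, 106, 113, 123 and 152 CPM in PBS mice, 78.8, 166, 131, 149 and 153 in mono-IL10 mice and 125, 169, 121, 107 and 137 in IL10/2-Trikine mice. The groups overlapped, with log2 differences from PBS of 0.23 (SE 0.17, adjusted p = 0.716 by edgeR) for mono-IL10 and 0.18 (SE 0.17, adjusted p = 0.803) for IL10/2-Trikine, and -0.05 (SE 0.18, adjusted p = 0.948) between the cytokines. It was found in 20.9%, 27.5% and 22.9% of thinned endothelial cells.

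Mrc1 in endothelial cells varied widely between mice, from 37.0 to 107 CPM after PBS, 31.2 to 241 after mono-IL10 and 3.03 to 250.1 after IL10/2-Trikine. Its log2 difference from PBS was 0.28 (SE 0.60, adjusted p = 0.940 by edgeR) and 0.94 (SE 0.56, adjusted p = 0.601), and between the cytokines 0.66 (SE 0.60, adjusted p = 0.744). Macrophage markers in the same sums ran from 674 to 1667, from 68.7 to 1178 and from 75.7 to 1488 CPM. Their part in Mrc1 was not tested. Msr1 had differences of -1.01 (SE 0.54, adjusted p = 0.574), 0.10 (SE 0.46, adjusted p = 0.984) and 1.11 (SE 0.59, adjusted p = 0.509) by edgeR.

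Of the 3 members that passed the filter in endothelial cells, 0 were called in any contrast by edgeR or DESeq2, and 0 had an unadjusted p under 0.05 by edgeR. Of all 6142 genes that passed it, 612 had one under 0.05 for mono-IL10 against PBS. For IL10/2-Trikine against PBS it was 672, and between the cytokines 701. Without that filter edgeR called Mrc1 for IL10/2-Trikine against PBS (adjusted p = 0.0469) and Lyve1 between the cytokines (adjusted p = 0.0056), where 0.81% and 0.794% of all 19022 genes were called, and no member for mono-IL10 against PBS, where 0.867% were. Lyve1 in endothelial cells was 1.23, 3.83, 1.54, 0 and 3.63 CPM in PBS mice, 0 in every mono-IL10 mouse and 0, 22.2, 9.08, 12.2 and 9.15 CPM in IL10/2-Trikine mice, of which 4 of 5 lay above every mouse of the other groups. These levels rest on at most 10 UMIs in a mouse. A lymphatic marker list without Lyve1 summed in these cells to 63.1 to 83.4 CPM after PBS, 27.1 to 239 after mono-IL10 and 56.6 to 580 after IL10/2-Trikine. The part of lymphatic cells in Lyve1 was not tested. With the filter the shares of all genes called in either direction were 0.114% for mono-IL10 against PBS, 0.602% for IL10/2-Trikine against PBS and 0.261% between the cytokines. Each PBS mouse had 31 to 73 endothelial cells, each mono-IL10 mouse 11 to 25 and each IL10/2-Trikine mouse 38 to 55. Small differences may be missed at these numbers, and the size that could be detected was not measured. At 2000 UMIs a Cd163 UMI was found in 0 of 416 PBS, 0 of 142 mono-IL10 and 0 of 419 IL10/2-Trikine endothelial cells, which allows shares of cells with a UMI at that depth of up to 0.721%, 2.11% and 0.716% (3 counts of the total). Without thinning, 1 Cd163 UMI was present in PBS mouse 2, 2 each in mono-IL10 mice 3 and 4 (8.47 and 6.64 CPM) and 1 each in IL10/2-Trikine mice 2 and 5 (2.22 and 3.05 CPM), and the other mice were at 0.

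A small cluster with Ccl21a, Mmrn1 and Prox1, markers of lymphatic endothelium, was left unnamed because it was mixed with tumor markers (Krt8 at 658 and Krt18 at 384 CPM, against 51.4 and 29.4 in endothelial-like cells), and held 131, 33 and 179 cells. Lyve1, a known marker of lymphatic vessels, was 278, 451 and 191 CPM there, Stab1 274, 351 and 201 and Mrc1 204, 220 and 225 over the PBS, mono-IL10 and IL10/2-Trikine libraries. In mice with at least 10 of these cells Lyve1 was 389 ± 388 CPM after PBS (SD, n = 4) and 195 ± 177 after IL10/2-Trikine (SD, n = 5), a difference within the spread between mice. PBS mouse 5 alone held 929 CPM, and the part of the tumor markers in these levels was not tested.

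**Figure D5:**
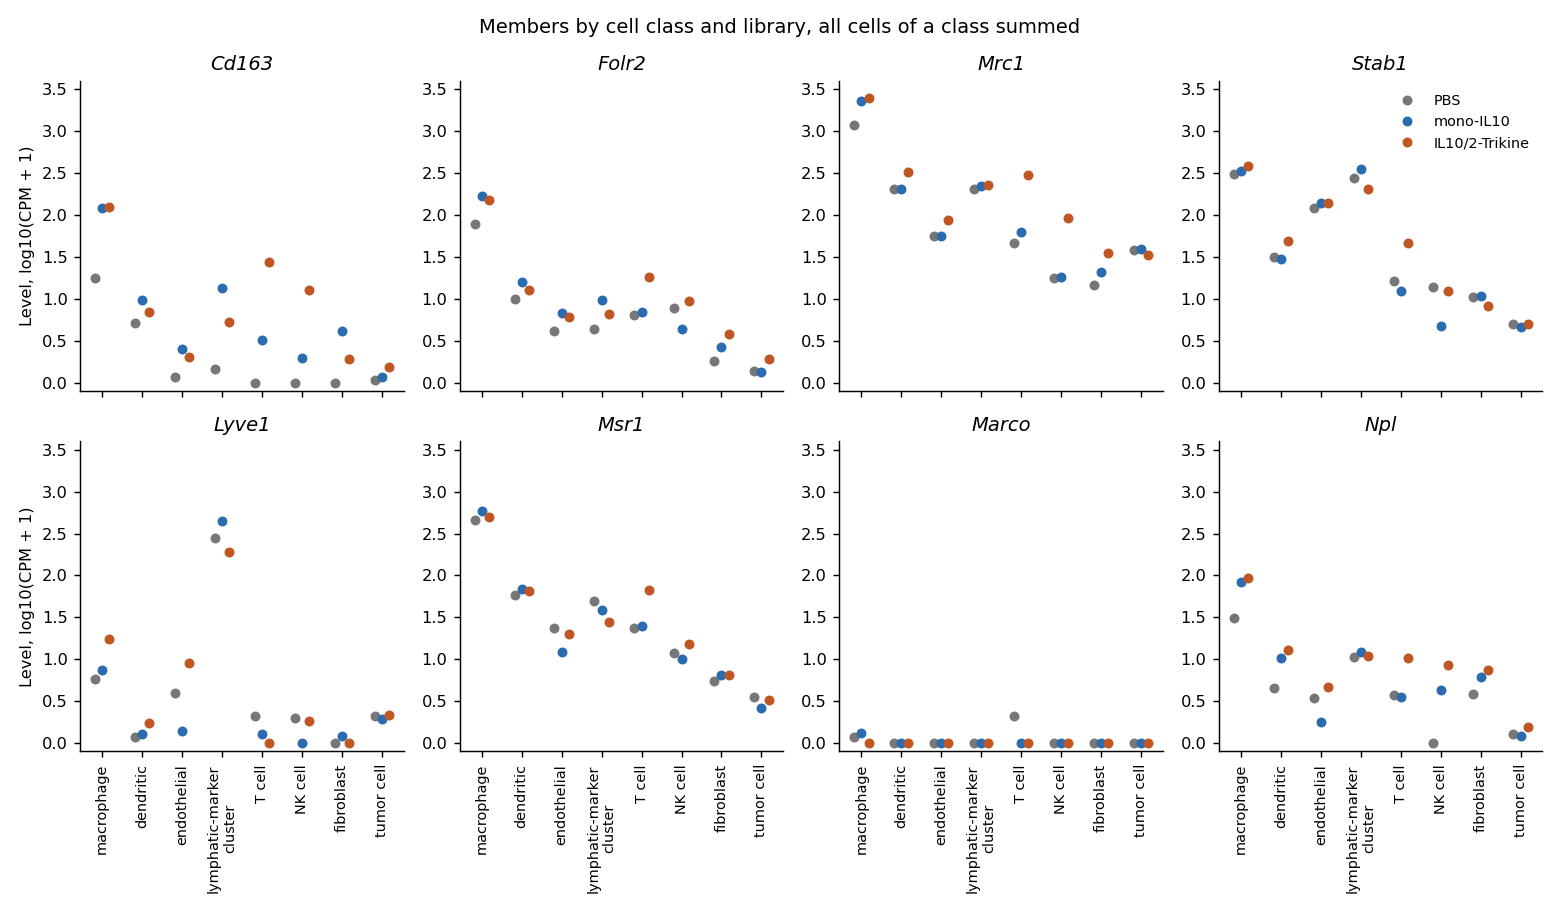
Level of each member by cell class as log10(CPM + 1), with 1 point per treatment library from all cells of the class summed. Lyve1 is highest in the cluster with lymphatic markers, at 278, 451 and 191 CPM, and Cd163 is highest in macrophages, with T cells of the IL10/2-Trikine library at 26.7 CPM.

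Cells of classes that should lack these receptors held them at levels that differed between classes. A Cd163 UMI was found in 0 of 482 thinned T cells after PBS (up to 0.622%, as 3 counts of the total), in 3 of 807 after mono-IL10 (0.372%, exact 95% interval 0.0767 to 1.08%) and in 5 of 165 after IL10/2-Trikine (3.03%, 0.991 to 6.93%). Their median depths were 2611, 3450 and 2485 UMIs, and the intervals cover counting error only. The IL10/2-Trikine interval overlapped that of mono-IL10 and lay below the 9.07% of IL10/2-Trikine macrophages. After PBS, mono-IL10 and IL10/2-Trikine, NK cells held Cd163 in 0% (0 of 242), 0.284% and 0.450% of cells, fibroblasts in 0% (0 of 587), 0.220% and 0.229%, and tumor cells in 0.0304%, 0% (0 of 7436) and 0.0906%. The T cell interval of the IL10/2-Trikine library lay above those of its fibroblasts and tumor cells, so no single class gave a background for the whole library. Mrc1 was found in 5.81%, 7.31% and 25.5% of T cells, 2.89%, 3.98% and 9.60% of NK cells and 5.70%, 6.13% and 5.20% of tumor cells.

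Genes of the pathways around the members were tested across all genes in macrophages, from lists that were also drawn up with earlier results of these data known, so the counts describe the lists and are no independent evidence of their direction. Of all 12074 genes tested, 12.9% were called higher and 14.3% lower for mono-IL10 against PBS, 9.03% and 8.58% for IL10/2-Trikine against PBS, and 5.68% and 6.2% for IL10/2-Trikine against mono-IL10. Values below are log2 differences with adjusted p by edgeR's quasi-likelihood test. The median over all genes was -0.02, 0.00 and 0.02.

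Genes of tissue-resident-type macrophages, to which Cd163 and Folr2 are known to belong, numbered 15, of which 13 were tested. With each cytokine 8 rose, 0 fell and 5 were not called (median 0.51 and 0.53). Ccl8, a chemokine, was at 1065, 2872 and 3361 CPM after PBS, mono-IL10 and IL10/2-Trikine and rose by 1.51 (adjusted p = 2.11e-06) and 1.65 (1.9e-06). Ednrb, an endothelin receptor, rose by 1.77 (adjusted p = 1.14e-05) and 1.47 (0.000557), and C4b, a complement component, by 1.32 (7.69e-06) and 1.82 (1.02e-06). Between the cytokines 0 of the 13 were called (median 0.28).

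Other scavenger receptors moved in both directions. Of 22 listed, 14 were tested, with 3 higher and 4 lower for mono-IL10 (median -0.16) and 2 higher and 5 lower for IL10/2-Trikine (median -0.08). Cd36, a receptor for oxidized lipids, fell from 84.9 CPM after PBS to 17.7 and 33.8, by 2.17 (adjusted p = 1.09e-06) and 1.26 (0.00109). An unnamed cluster led by Mmp12 and Cd36, of low macrophage score, was left out of these sums. It held 892 PBS, 168 mono-IL10 and 506 IL10/2-Trikine cells, and no Cd36 value with it is given here. Scarf1, which binds acetylated lipoproteins, fell by 1.13 (adjusted p = 0.00151) and 1.01 (0.0202), while Cxcl16 rose by 0.48 (1.58e-05) after mono-IL10. Between the cytokines 2 were higher for IL10/2-Trikine and 2 lower (median -0.01).

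Of 12 genes of hemoglobin and iron handling, the task Cd163 serves, 11 were tested. For mono-IL10 2 were higher and 3 lower, and for IL10/2-Trikine 1 higher and 4 lower. Hp, encoding the haptoglobin that Cd163 binds with hemoglobin, rose by 0.77 (adjusted p = 0.00349) and 0.98 (0.00219) from 9.87 CPM. Slc40a1, the iron exporter ferroportin, fell by 1.97 (3.3e-06) and 1.37 (0.000866). Hmox1, which breaks down heme, rose by 0.38 (0.00791) after mono-IL10 and stood at 0.18 (0.245) after IL10/2-Trikine. Between the cytokines 1 was higher (Cp, by 1.51) and 1 lower (Fth1, by a log2 difference of -0.49).

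Of 12 genes of sialic acid use, around Npl, 11 were tested, with 2 higher and 1 lower for each cytokine against PBS, and 1 and 1 between them. Neu1, a lysosomal sialidase, rose by 0.34 (adjusted p = 0.000918) after mono-IL10, and Cmas, which activates sialic acid, fell by 0.24 (0.0133) and 0.26 (0.026). Of 12 genes of folate uptake and use, 11 were tested. None was higher and 4 were lower after mono-IL10, and 2 were lower after IL10/2-Trikine. Tyms, for thymidylate synthesis, fell by 1.01 (0.000154) and 0.80 (0.00741). The Cx3cr1 and Fcrls cluster, with the cell cycle gene Mki67 among its leading genes, also differed in share. It averaged 6.56%, 1.61% and 2.70% of macrophages after PBS, mono-IL10 and IL10/2-Trikine. The part of this cluster in the falls of Tyms and, below, of Hmmr was not tested. None of the folate genes was called between the cytokines.

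Of 12 genes of hyaluronan binding and turnover, the ligand of Lyve1, 8 were tested, with 4 higher and 2 lower after mono-IL10 (median 0.36), 3 higher and 2 lower after IL10/2-Trikine (median -0.07), and 0 higher and 2 lower between the cytokines. Tnfaip6, a secreted hyaluronan-binding protein, rose by 1.18 (adjusted p = 1.19e-06) and 0.70 (0.00125), and Cemip2, a cell-surface hyaluronidase, by 0.84 (6.23e-05) and 1.14 (1.1e-05). Hmmr, a hyaluronan receptor tied to cell division, fell by 1.37 (0.00072) and 1.01 (0.028). In all, the 6 lists had 33, 30 and 10 calls in the 3 contrasts, and leaving out macrophages with under 2000 genes changed them to 31, 15 and 17, with 681 IL10/2-Trikine macrophages left.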

How the data were processed

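Single-cell 5′ gene expression and hashtag libraries of tumor cells were measured for 3 treatments. The authors deposited raw counts, as UMIs per gene and barcode on GRCm39 from Cell Ranger 9.0.1 per the file headers. The submitters' processing notes name Seurat 5.1.0 and DESeq2 1.46.0. The authors' table of cell annotations was used only as a check, and 1 of its groups had no sample and was left out.

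Here, barcodes were dropped under 1000 genes or over 10% mitochondrial UMIs, hashtags were called with HTODemux in Seurat 5.3.0 (quantile 0.99), and hashtag doublets (8.64% to 13.3% of a library) were removed. Barcodes with no hashtag call (7376, 4160 and 13903 in the PBS, mono-IL10 and IL10/2-Trikine libraries) were kept for clustering and belong to no mouse. Cells were clustered without the deposited annotation, on 2000 variable genes other than the members and 40 components into 60 clusters, and clusters were named by fixed marker lists. The score ratio that settles a name was changed from 0.25 to 0.2 after the clusters were inspected, which kept 1 cluster mixed with T cell markers out of the macrophages. A check of leading genes against the name kept out 1 cluster led by Ccr7, Ccl17 and Ccl22. Mixed macrophage clusters (4459, 3542 and 4514 cells in the PBS, mono-IL10 and IL10/2-Trikine libraries) stayed unnamed.

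Counts were summed per mouse and class, for mice with at least 10 cells, and fitted with edgeR 4.0.16 (quasi-likelihood test, TMM scaling, filterByExpr, Benjamini-Hochberg over all genes) in R 4.3.3, with DESeq2 1.42.0 as an alternative. The fit was tested on simulated data. The members, the pathway lists and the naming markers were chosen with earlier results of these data known. Named genes are the 8 members, the 5 genes most like Cd163 over 15 mice, and at most the 4 called genes with the largest difference per list and contrast, of which 1 is not reported here. Promoter windows are RefSeq, GRCm38.p6. Mouse numbers follow the hashtag and name mice within a library only.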

Additional observations from a re-analysis of the deposited data

Results flagged for a closer look

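Of 63 groups of 5 mice, 8 held 1 mouse far from the other 4. For normally spread values the rule marks about 1 in 20. That rate does not hold for sparse counts, where 1 UMI beside mice at 0 is always marked, so no excess is read. Of the 8 groups, 4 came from mouse 3 of the mono-IL10 library. Its dendritic cells held Folr2 at 63.8 CPM (22 UMIs in 32 cells), with the other mice at 5.31 to 14.6 CPM. Its endothelial cells held Mrc1 at 241 CPM (57 UMIs in 11 cells), with the others at 31.2 to 84.4 CPM, and Folr2 at 29.6 CPM (7 UMIs), with the others at 0 to 7.85 CPM. Its macrophages held Marco at 1.49 CPM (13 UMIs), with the others at 0 to 0.178 CPM.

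Folr2 in endothelial cells of IL10/2-Trikine mouse 1 was 23.8 CPM (8 UMIs), with the others at 0 to 6.67 CPM. The last 3 each rest on 1 UMI, namely Lyve1 in dendritic cells of IL10/2-Trikine mouse 1 (3.57 CPM) and of PBS mouse 5 (1.62 CPM), and Cd163 in endothelial cells of PBS mouse 2 (0.958 CPM).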

How the results depend on the processing

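For the members in macrophages, 465 of 483 alternative values moved by less than the spread between mice. Most of these were refits with 1 mouse left out or of the same counts, where a small move is nearly built in. The sign changed in 13 of the 483, of which 8 were Cd163 between the cytokines, 2 Lyve1 with mono-IL10 against PBS, 2 Stab1 and 1 Mrc1 between the cytokines. The 9 clusters that had 10 cells in every mouse were also weighted equally, with the others left out, as log2 ratios of mean CPM. The Cd163 difference from PBS was then 1.88 for mono-IL10 and 2.09 for IL10/2-Trikine, and that of Stab1 for mono-IL10 was -0.20. Stab1 between the cytokines was -0.15 in cells with at least 2000 genes. Cd163 ran from 2.67 to 3.18 and from 2.68 to 3.18 against PBS with each mouse left out. The cause was not tested. In endothelial cells, leaving out each mouse gave -0.21 to 0.026 for Stab1 between the cytokines, -0.36 to 0.49 for Mrc1 with mono-IL10 and -0.28 to 0.38 for Msr1 with IL10/2-Trikine, both against PBS, and Msr1 passed the filter in 12 of the 15 runs. Without the filter on low counts 1 member was called in IL10/2-Trikine against PBS (Mrc1, adjusted p = 0.0469 by edgeR) and 1 between the cytokines (Lyve1, 0.0056, with every mono-IL10 mouse at 0). Of the co-detection differences 32 alternative values moved by less than the spread between mice, 21 by more and 1 changed sign. The Folr2 excess beside Cd163 in PBS cells was 58.8 percentage points at 5000 UMIs, 52.4 not thinned and 53.2 with at least 2 UMIs, and in IL10/2-Trikine cells 19.7 at 5000 UMIs, where that of Lyve1 was -2.37. In cells with at least 2000 genes the pathway lists had 15 calls between IL10/2-Trikine and PBS and 17 between the cytokines, and 5 to 12 for the latter with each mouse left out, the lowest without IL10/2-Trikine mouse 1. Adding a macrophage cluster of low marker score, and the pathway counts in cells with no tumor, T or NK marker, were chosen after seeing the data. Depth limits Lyve1, Marco and every endothelial value. No paired analysis was possible because hashtag numbers only name mice within a library.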
